A study of Mus musculus with 12 samples.

Results

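The genes described here carry out or control mitochondrial fatty acid beta-oxidation, the stepwise removal of acetyl units from fatty acids. They are the 9 rows of the count tables with the symbols Cpt1a, Cpt2, Slc25a20, Acadm, Acadl, Acadvl, Hadha, Hadhb and Ppargc1b, out of 24421 genes. All 9 passed the filter on low counts and were among the 12164 genes tested. RNA came from bone marrow-derived macrophages, primary macrophages grown from marrow progenitors, of male C57BL/6J mice aged 8 weeks. The 12 libraries of polyA RNA formed 4 groups of 3. Cells with an siRNA against Ehd1 and lipopolysaccharide (LPS-treated siEhd1, M1) and cells with a control siRNA and LPS (LPS-treated siControl, M1) were set beside cells with the Ehd1 siRNA alone (resting siEhd1, M0) and with the control siRNA alone (resting siControl, M0). All groups had therefore received an siRNA, and untransfected cells are not analysed here. LPS, from the outer membrane of Gram-negative bacteria, is sensed by macrophages through the receptor TLR4. The sources used here do not state the dose and time of LPS, the siRNA sequences or whether replicates were separate animals or cultures. The p-values therefore describe the spread among these 12 libraries, and that spread may be technical.

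Long-chain fatty acids enter mitochondria through the carnitine shuttle. CPT1A on the outer membrane makes acyl-carnitine, the carrier SLC25A20 moves it across the inner membrane, and CPT2 turns it back into acyl-CoA. Acyl-CoA dehydrogenases of different chain-length preference (ACADVL, ACADL and ACADM) then start each cycle, and the mitochondrial trifunctional protein, built from HADHA and HADHB, completes it for long chains. Ppargc1b encodes PGC-1beta, a coactivator of nuclear receptors that raises transcription of mitochondrial genes. In macrophages, oxidation of fatty acids is best known from alternatively activated cells, whereas LPS-activated cells rely more on glycolysis.

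Hadha and Hadhb are neighbours in head-to-head orientation, so their promoter windows are shown first. On chromosome 5 of GRCm38 (the assembly also called mm10), Hadha spans 30118304 to 30155162 on the minus strand and Hadhb spans 30155248 to 30184593 on the plus strand, per GENCODE M21. In RefSeq (GRCm38.p6) their start sites lie 273 bases apart, and the windows from 250 bases before to 50 bases after each start share 228 bases. Windows for Cpt1a, Acadm and Acadvl are shown with it because these genes had the largest LPS-associated decrease among the members, a match to the estrogen-related receptor half-site, and no LPS change that passed the test. Each is written 5′ to 3′, the shared region on the plus strand and the others on the strand of the gene. Capitals mark the GC box GGGCGG, to which SP factors bind, or the half-site AAGGTCA, on either strand.
Hadha and Hadhb shared region, chr5:30155003-30155230: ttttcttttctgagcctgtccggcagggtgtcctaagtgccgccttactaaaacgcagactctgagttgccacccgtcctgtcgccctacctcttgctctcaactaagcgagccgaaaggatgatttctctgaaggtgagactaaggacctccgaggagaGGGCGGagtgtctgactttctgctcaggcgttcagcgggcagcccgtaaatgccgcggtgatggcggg
Cpt1a, chr19:3323051-3323350, plus strand: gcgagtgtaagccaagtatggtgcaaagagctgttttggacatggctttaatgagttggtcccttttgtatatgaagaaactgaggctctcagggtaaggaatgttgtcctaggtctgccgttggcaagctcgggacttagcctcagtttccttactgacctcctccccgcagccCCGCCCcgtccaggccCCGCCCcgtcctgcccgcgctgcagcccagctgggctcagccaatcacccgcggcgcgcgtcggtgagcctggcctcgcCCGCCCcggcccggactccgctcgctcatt
Acadm, chr3:153944594-153944893, minus strand: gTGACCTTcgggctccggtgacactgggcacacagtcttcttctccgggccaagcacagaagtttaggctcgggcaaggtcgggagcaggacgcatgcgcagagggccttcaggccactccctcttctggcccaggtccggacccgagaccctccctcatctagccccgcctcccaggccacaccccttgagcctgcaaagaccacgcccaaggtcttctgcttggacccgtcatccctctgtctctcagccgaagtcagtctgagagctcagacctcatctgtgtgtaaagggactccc
Acadvl, chr11:70015379-70015678, minus strand: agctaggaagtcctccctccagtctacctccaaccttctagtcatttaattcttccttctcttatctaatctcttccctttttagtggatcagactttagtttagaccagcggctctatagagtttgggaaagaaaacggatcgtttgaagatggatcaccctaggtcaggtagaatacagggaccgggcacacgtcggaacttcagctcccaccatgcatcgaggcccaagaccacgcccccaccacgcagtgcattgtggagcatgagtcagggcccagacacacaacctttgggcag

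RefSeq windows were found for 8 of the 9 genes. The GC box occurred in 6 of the 8 on either strand (Acadl, Cpt2, Hadha, Hadhb, Slc25a20 and Cpt1a), against 46.7% of the 20788 promoter windows of counted genes. Acadl and Hadhb held 4 matches each, Cpt1a, Cpt2 and Slc25a20 held 3 each, and Hadha held 1. The Hadha match, at position -188, and the Hadhb match at -90 are the same bases of the shared region, counted for both genes. The half-site AAGGTCA was found in the Acadm window alone, on the opposite strand at position -249 from the start, against 4.12% of all windows. The E-box CACGTG was in 0 of the 8 windows (8.05% of all), the direct repeat DR1 bound by PPAR and RXR was in 0 of the 8 (0.366% of all), and the CCAAT box was in the Cpt1a window alone (38.0% of all). GC content ran between 50.7% in Acadvl and 70.3% in Acadl, with a median of 56.7% over all windows. These matches describe the letters in 300-base windows and say nothing about binding.

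Depth was similar across groups, with library totals of 18572725 to 22545272 counts. Levels are given as CPM, library-scaled counts after TMM normalization, and changes as log2 fold changes with SE from edgeR's quasi-likelihood test with Benjamini-Hochberg adjustment over all 12164 genes; a gene is called changed at an adjusted p under 0.05. Ehd1, the target of the siRNA, had 302 ± 18.2 CPM in LPS-treated siEhd1 cells against 619.7 ± 64.5 CPM in LPS-treated siControl cells, and 31.5 ± 2.35 CPM in resting siEhd1 cells against 53.2 ± 1.18 CPM in resting siControl cells (SD, n = 3 each), so every siEhd1 library lay below every siControl library of its state. The 10 macrophage markers summed to 20230 to 39420 CPM per library and none was at 0, and the LPS response list (Nos2, Tnf, Il1b, Il6, Irg1, Ptgs2, Cxcl10 and Il12b) summed to 3019 to 3994 CPM after LPS against 14.9 to 18.1 CPM at rest. Markers of neutrophils, dendritic cells, lymphocytes and adipocytes summed to at most 4.21, 1.49, 0.440 and 0.132 CPM. The stromal and endothelial list reached 17.4 CPM after LPS, against at most 3.99 CPM at rest. In bulk RNA, fewer cells of a type and less RNA per cell cannot be told apart. Resting and LPS-treated libraries stand in 2 deposited tables and no batch is labelled, so LPS treatment cannot be told apart from a difference in how the tables' libraries were handled.

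**Figure D1:**
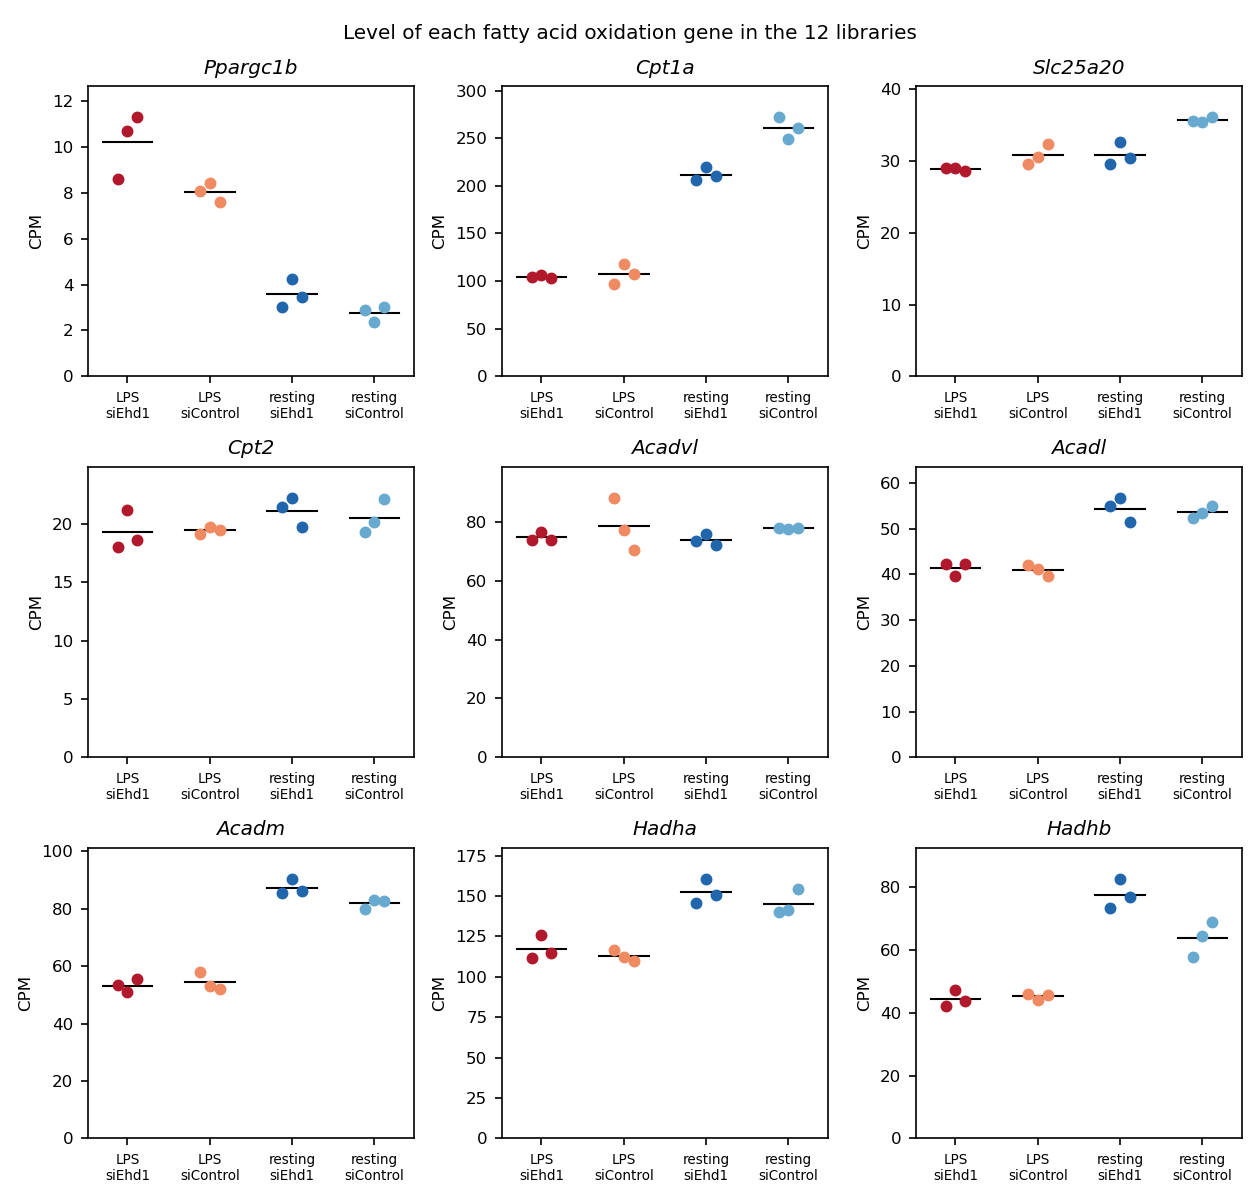
Levels of the 9 fatty acid oxidation genes in CPM (vertical axis, starting at 0) in each of the 12 libraries, 1 panel per gene. Points are libraries and horizontal bars are group means; Cpt1a has its 6 LPS-treated libraries between 96.8 and 117.5 CPM, all below the 6 resting libraries, and Ppargc1b shows the opposite order.

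LPS was accompanied by lower RNA of most of the enzymes and carriers among the 9 genes and higher RNA of the coactivator gene Ppargc1b. Other genes of the mitochondrial pathway, given below, went both ways. With siControl, 6 of the 9 genes fell (Cpt1a, Slc25a20, Acadm, Acadl, Hadha and Hadhb), Ppargc1b rose, and Cpt2 and Acadvl did not pass the test. Across all tested genes 34.0% were called lower and 34.8% higher in this comparison, and the median log2 fold change was -0.37 over the 9 genes and -0.01 over all genes. With siEhd1, 5 of the 9 fell (Cpt1a, Acadm, Acadl, Hadha and Hadhb), Ppargc1b rose and 3 were not called, with 34.0% of all genes called lower and 32.9% higher and a median of -0.38 against -0.02. The same numbers of members were called in both comparisons by DESeq2 and by limma-voom.

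Ppargc1b was the single member that rose after LPS. It had 8.598, 10.7 and 11.3 CPM in the 3 LPS-treated siEhd1 libraries and 8.09, 8.43 and 7.61 CPM in the LPS-treated siControl libraries. At rest it had 3.03, 4.23 and 3.45 CPM with siEhd1 and 2.91, 2.37 and 3.03 CPM with siControl. All 6 LPS-treated libraries lay above all 6 resting ones. After LPS Ppargc1b stood at 2.85-fold its resting level with siEhd1 (log2 fold change 1.51, SE 0.14, adjusted p = 4.8e-09). With siControl it stood at 2.90-fold (1.54, SE 0.15, adjusted p = 1e-08). It was the least abundant member, with 54 to 221 counts per library, so its relative counting error was larger than that of the enzymes. Ppargc1b occupies 61298136 to 61400431 of chromosome 18, minus strand.

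Cpt1a, the regulated entry step of the carnitine shuttle, had the largest decrease of the 9 genes. Its libraries held 104, 106 and 103 CPM in LPS-treated siEhd1 cells and 96.8, 117.5 and 107.8 CPM in LPS-treated siControl cells. Resting siEhd1 libraries held 206, 219 and 210.1 CPM and resting siControl libraries 272, 249 and 261 CPM. After LPS Cpt1a stood at 49.4% of its resting level with siEhd1 (-1.02, SE 0.06, adjusted p = 5.2e-12). With siControl it stood at 41.2% (-1.28, SE 0.06, adjusted p = 1.1e-13). Cpt1a occupies 3322334 to 3385733 of chromosome 19, plus strand.

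The other carnitine shuttle genes moved little. Slc25a20, the carnitine-acylcarnitine carrier on chromosome 9, had 29.1, 29.0 and 28.6 CPM in LPS-treated siEhd1 cells, 29.6, 30.6 and 32.4 CPM in LPS-treated siControl cells, 29.6, 32.6 and 30.5 CPM in resting siEhd1 cells and 35.5, 35.4 and 36.1 CPM in resting siControl cells. The resting siControl libraries stood above all 9 others. Slc25a20 stood at 86.6% of the resting level after LPS with siControl (-0.21, SE 0.06, adjusted p = 0.0038). With siEhd1 the log2 difference of -0.10 (95% interval -0.22 to 0.03) had an adjusted p of 0.16. Cpt2, the inner-membrane transferase on chromosome 4, ranged between 17.98 and 22.2 CPM over all 12 libraries. Its LPS difference was -0.13 with siEhd1 (SE 0.08, adjusted p = 0.15) and -0.08 with siControl (95% interval -0.24 to 0.08, adjusted p = 0.38). Without LPS-treated siEhd1 replicate 2, the Cpt2 difference with siEhd1 was -0.20 and was called (adjusted p = 0.040).

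Among the acyl-CoA dehydrogenases, the medium- and long-chain enzymes fell after LPS and the very-long-chain enzyme did not pass the test. Acadm, on chromosome 3, had 53.4, 51.0 and 55.4 CPM in LPS-treated siEhd1 cells and 57.9, 53.2 and 52.0 CPM in LPS-treated siControl cells. At rest it had 85.3, 90.3 and 86.3 CPM with siEhd1 and 79.9, 83.1 and 82.8 CPM with siControl. The 6 LPS-treated libraries did not overlap the resting ones, and the decreases were -0.71 with siEhd1 (SE 0.05, adjusted p = 2.9e-10) and -0.59 with siControl (SE 0.05, adjusted p = 5.2e-09). Acadl, on chromosome 1, had 42.2, 39.7 and 42.3 CPM in LPS-treated siEhd1 cells, 42.1, 41.2 and 39.7 CPM in LPS-treated siControl cells, 54.9, 56.7 and 51.5 CPM in resting siEhd1 cells and 52.3, 53.4 and 54.9 CPM in resting siControl cells. Its decreases were -0.39 with siEhd1 (adjusted p = 2.9e-06) and -0.38 with siControl (adjusted p = 3.7e-06). Acadvl, on chromosome 11, averaged 74.9 ± 1.49 CPM in LPS-treated siEhd1 cells, 78.7 ± 8.96 CPM in LPS-treated siControl cells, 73.9 ± 1.99 CPM in resting siEhd1 cells and 77.9 ± 0.0758 CPM in resting siControl cells (SD, n = 3 each). Its LPS difference was 0.02 with siEhd1 (adjusted p = 0.82) and 0.01 with siControl (95% interval -0.12 to 0.15, adjusted p = 0.85). The spread of Acadvl was widest in the LPS-treated siControl group, whose libraries held 88.1, 77.5 and 70.3 CPM. Exons of Acadvl overlap Dvl2 on the opposite strand, and whether reads were counted by strand is not stated in the sources used here, so reads from the overlap cannot be told apart.

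Both subunits of the trifunctional protein fell after LPS. Hadha, the subunit with hydratase and long-chain hydroxyacyl-CoA dehydrogenase activity, had 112, 126 and 114 CPM in LPS-treated siEhd1 cells, 117, 112 and 109.5 CPM in LPS-treated siControl cells, 146, 160.4 and 150.4 CPM in resting siEhd1 cells and 139.9, 141 and 154 CPM in resting siControl cells. Hadhb, the thiolase subunit, had 42.1, 47.4 and 43.7 CPM in LPS-treated siEhd1 cells, 46.0, 44.1 and 45.8 CPM in LPS-treated siControl cells, 73.3, 82.6 and 76.9 CPM in resting siEhd1 cells and 57.8, 64.6 and 68.9 CPM in resting siControl cells. LPS-treated and resting libraries did not overlap for either gene. Hadha fell by 0.38 with siEhd1 (adjusted p = 8.2e-06) and by 0.37 with siControl (adjusted p = 1.2e-05). Hadhb fell to 57.2% of its resting level with siEhd1 (-0.81, SE 0.07, adjusted p = 1.2e-09) and to 71.0% with siControl (-0.49, SE 0.07, adjusted p = 1.7e-06). The annotated exons of Hadha overlap those of Garem2 on the opposite strand, a symbol without a row in the count tables.

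**Figure D2:**
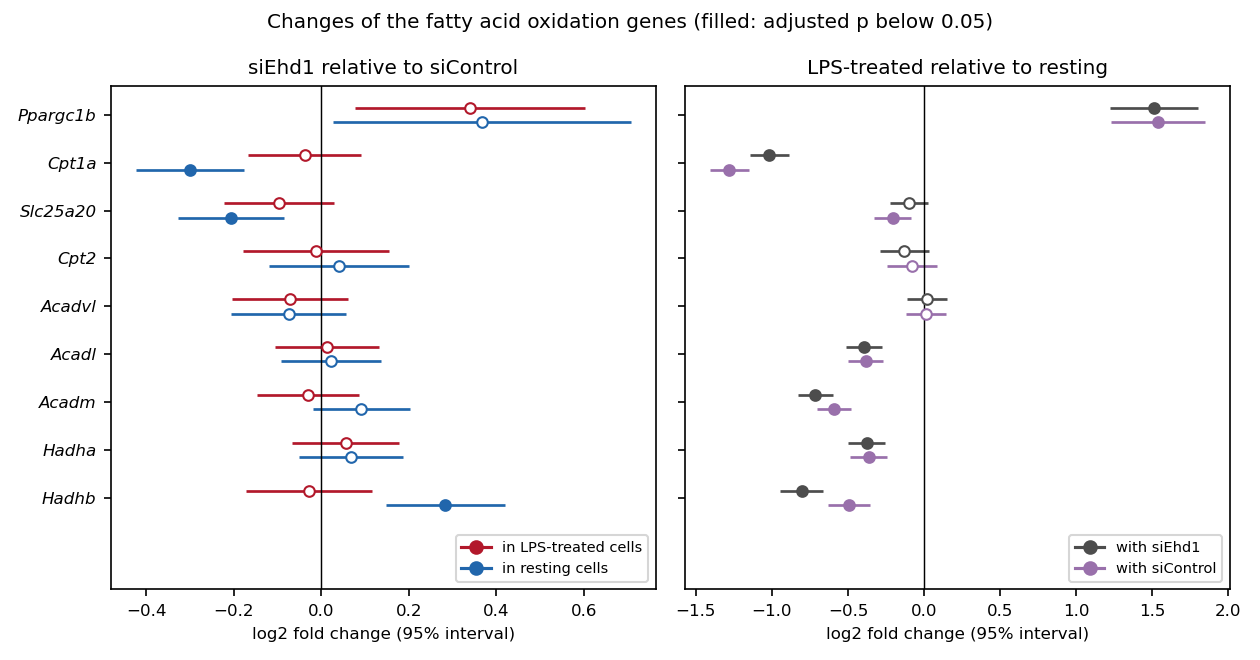
Log2 fold changes with 95% intervals (horizontal axis) for siEhd1 relative to siControl (left) and for LPS-treated relative to resting cells (right), 1 row per gene; filled points had an edgeR adjusted p under 0.05. Cpt1a, Slc25a20 and Hadhb are filled for siEhd1 in resting cells, and no gene is filled for siEhd1 in LPS-treated cells.

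The siRNA against Ehd1 was accompanied by smaller changes, which passed the test in resting cells only for 3 genes. Cpt1a and Slc25a20 were lower and Hadhb higher in resting siEhd1 cells than in resting siControl cells, and the other 6 members did not pass the test. Of all tested genes 14.0% were called higher and 14.2% lower in this comparison, and the median log2 fold change was 0.04 for the 9 genes and -0.02 for all genes. Cpt1a fell to 81.2% of control (-0.30, SE 0.06, adjusted p = 0.00072), with the highest resting siEhd1 library at 219 CPM and the lowest resting siControl library at 249 CPM. Slc25a20 fell to 86.6% of control (-0.21, SE 0.06, adjusted p = 0.011), but without resting siEhd1 replicate 1 its change was -0.18 with an adjusted p of 0.066. Hadhb rose to 121.7% of control (0.28, SE 0.07, adjusted p = 0.0027), and its resting siEhd1 libraries began at 73.3 CPM, above the highest resting siControl library at 68.9 CPM.

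For the members that were not called, the resting siEhd1 differences were small or imprecise. Hadha differed by 0.07 (95% interval -0.05 to 0.19, adjusted p = 0.41) with overlapping libraries. Acadm differed by 0.09 (95% interval -0.02 to 0.20, adjusted p = 0.21), although its 3 resting siEhd1 libraries all lay above the 3 resting siControl ones. Ppargc1b also had no overlap, with 3.57 ± 0.607 CPM in resting siEhd1 cells and 2.77 ± 0.351 CPM in resting siControl cells (SD, n = 3 each), but its difference of 0.37 had an interval of 0.03 to 0.71 and an adjusted p of 0.10. Acadvl differed by -0.07 (adjusted p = 0.40), and its 3 resting siEhd1 libraries, at 72.2 to 76.1 CPM, all lay below the 3 resting siControl ones, at 77.8 to 77.9 CPM. Cpt2 differed by 0.04 (adjusted p = 0.74) and Acadl by 0.02 (adjusted p = 0.80).

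After LPS, 0 of the 9 genes passed the test for siEhd1 against siControl, by edgeR, DESeq2 and limma-voom alike. In this comparison 4.44% of all tested genes were called higher and 4.10% lower. At the looser threshold of an unadjusted p under 0.05, where the share over all genes was not computed, 1 of the 9 was higher and 0 were lower. That gene was Ppargc1b, at 10.2 ± 1.42 CPM in LPS-treated siEhd1 cells and 8.04 ± 0.410 CPM in LPS-treated siControl cells (SD, n = 3 each), a difference of 0.34 (95% interval 0.08 to 0.60, adjusted p = 0.11) without overlap between the libraries. Cpt1a differed by -0.04 (95% interval -0.17 to 0.09, adjusted p = 0.79), Hadhb by -0.03 (95% interval -0.17 to 0.12, adjusted p = 0.87) and Slc25a20 by -0.10 (95% interval -0.22 to 0.03, adjusted p = 0.39). The LPS-treated siEhd1 libraries of Slc25a20, at 28.57 to 29.09 CPM, all lay below the LPS-treated siControl ones, at 29.64 to 32.44 CPM.

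Whether the siEhd1 effect itself differed between states was tested as LPS-treated minus resting. By edgeR 0 of the 9 genes passed, beside 3.12% of all genes called higher and 2.93% called lower. At the looser threshold of an unadjusted p under 0.05, 1 member was higher and 1 lower. The share over all genes at that threshold was not computed. DESeq2 and limma-voom also called 0. Cpt1a had a difference of 0.26 (SE 0.09, 95% interval 0.08 to 0.44, adjusted p = 0.078) and Hadhb one of -0.31 (SE 0.10, 95% interval -0.51 to -0.11, adjusted p = 0.058). Both sat near the threshold: Cpt1a was called without LPS-treated siControl replicate 2 (0.33, adjusted p = 0.026), and Hadhb was called without resting siControl replicate 3 (-0.37, adjusted p = 0.024), without LPS-treated siEhd1 replicate 2 (-0.36, adjusted p = 0.038) and without the filter on low counts (-0.31, adjusted p = 0.036). The call of Cpt1a and Hadhb in resting cells alone is therefore not shown to be a difference between states.

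Ratios of counts within a library do not depend on the scaling between libraries. The ratio of Hadha to Hadhb counts was 2.65, 2.65 and 2.62 in LPS-treated siEhd1 cells, 2.54, 2.55 and 2.39 in LPS-treated siControl cells, 1.99, 1.94 and 1.96 in resting siEhd1 cells and 2.42, 2.19 and 2.24 in resting siControl cells. With siEhd1 the ratio was therefore the highest of the 4 groups after LPS and the lowest at rest. The log2 difference of siEhd1 against siControl was 0.08 after LPS and -0.22 at rest, each without overlap (2-sided exact permutation p = 0.1 each, the smallest that 3 against 3 libraries can give). LPS against resting differed by 0.43 with siEhd1 (exact p = 0.1) and by 0.13 with siControl (exact p = 0.2). The siEhd1 effects on this ratio differed between states by 0.30, a difference that was not tested.

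The ratio of Cpt1a to Cpt2 counts set the outer- against the inner-membrane transferase. It was 5.79, 5.0 and 5.54 in LPS-treated siEhd1 cells, 5.06, 5.94 and 5.54 in LPS-treated siControl cells, 9.59, 9.88 and 10.7 in resting siEhd1 cells and 14.1, 12.4 and 11.8 in resting siControl cells. All resting libraries exceeded all LPS-treated ones, and resting siControl libraries exceeded resting siEhd1 ones. The log2 differences for LPS were -0.88 with siEhd1 and -1.21 with siControl (exact permutation p = 0.1 each). For siEhd1 they were -0.02 after LPS (exact p = 0.8) and -0.34 at rest (exact p = 0.1), and their difference of 0.32 was not tested.

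**Figure D3:**
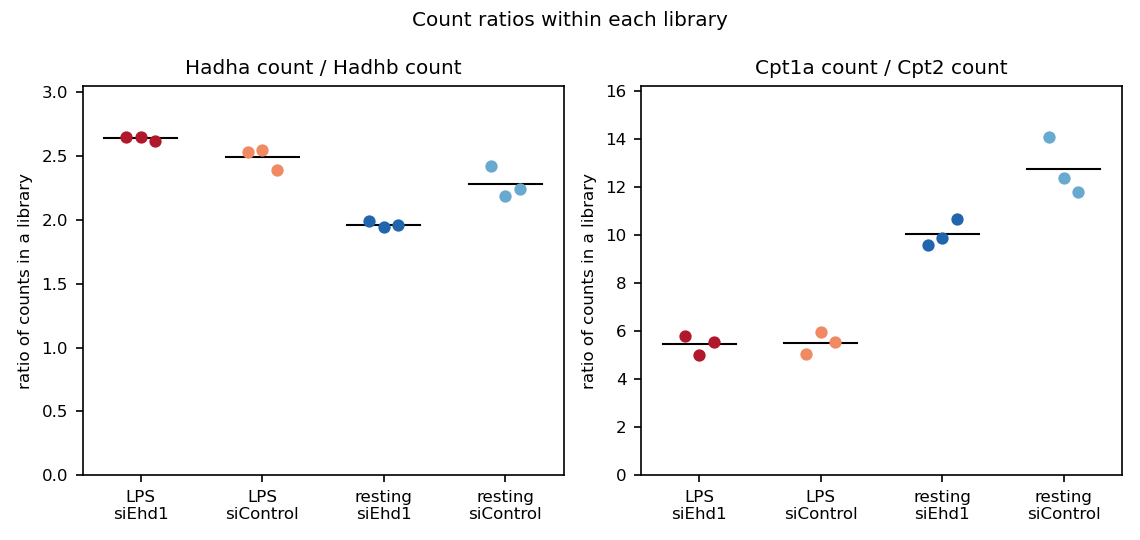
Within-library count ratios of Hadha to Hadhb and of Cpt1a to Cpt2 (vertical axes) in the 4 groups; points are libraries and bars are means. For Hadha to Hadhb, siEhd1 libraries lie at 2.62 to 2.65 after LPS and at 1.94 to 1.99 at rest.

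Levels were compared between the genes only per kilobase of exon. The length was the union of exons over annotated coding transcripts, 4017 bases for Hadha and 2080 for Hadhb. Which transcripts the cells used was not determined, and the order of genes depends on these lengths. Acadvl also has the exon overlap with Dvl2 given above. In resting siControl cells the order of CPM per kilobase was Cpt1a (60.4), Acadm (40.0), Hadha (36.2), Acadvl (35.9), Hadhb (30.7), Acadl (27.9), Slc25a20 (20.01), Cpt2 (8.66) and Ppargc1b (0.741). The library ranges of Hadha and Acadvl overlapped, as did those of Hadhb and Acadl, and all other neighbours were apart. In resting siEhd1 cells Cpt1a still led at 49.0 CPM per kilobase, followed by Acadm (42.7), and Hadhb (37.3) overlapped Hadha (37.9) instead of Acadl (28.4). After LPS the order changed. Acadvl led at 34.5 CPM per kilobase with siEhd1 and 36.3 with siControl, while Cpt1a stood in place 4 at 24.2 with siEhd1 and 24.9 with siControl, where its range overlapped that of Acadm with siControl but not with siEhd1. Slc25a20, Cpt2 and Ppargc1b kept places 7, 8 and 9 in every group. The 9 genes together summed to 493.9 ± 12.3 CPM in LPS-treated siEhd1 cells, 497.8 ± 11.4 CPM in LPS-treated siControl cells, 712.7 ± 27.8 CPM in resting siEhd1 cells and 742 ± 17.6 CPM in resting siControl cells (SD, n = 3 each).

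**Figure D4:**
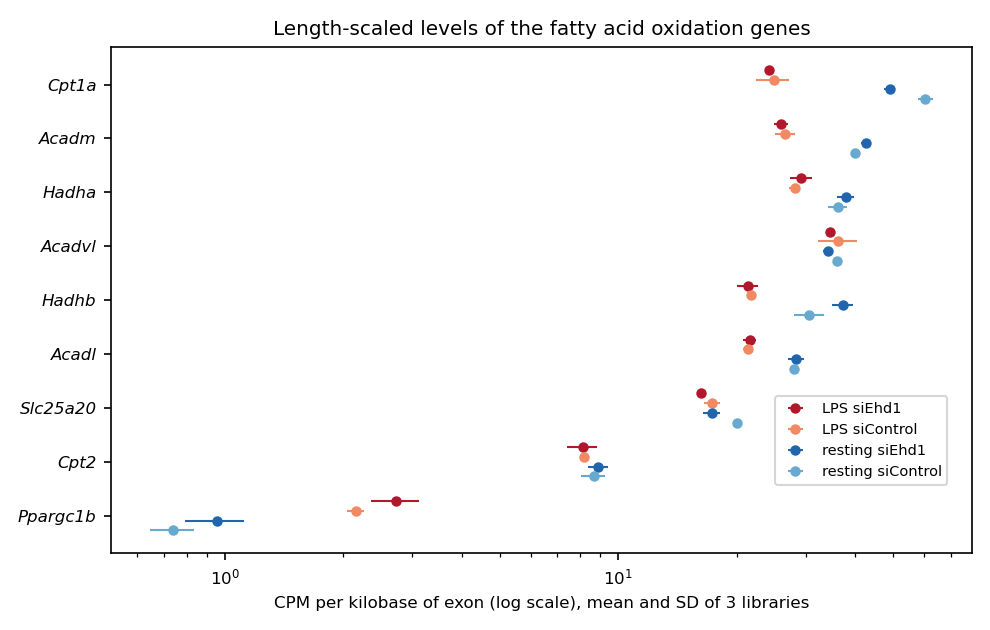
CPM per kilobase of exon (logarithmic axis) of the 9 genes in the 4 groups; points are means and lines are ± SD of 3 libraries. With the annotated exon lengths used, Cpt1a leads at rest and Acadvl leads after LPS.

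Across the 12 libraries, which share 4 groups and therefore no more than 4 independent conditions, most enzymes varied together. Pearson r of log2 CPM was 0.986 for Acadm and Acadl, 0.964 for Hadha and Hadhb and 0.937 for Cpt1a and Acadm. After each group's mean was removed, r stayed at 0.857 for Hadha and Hadhb and 0.737 for Acadm and Acadl but was -0.533 for Cpt1a and Acadm. For Cpt1a and Acadvl r was -0.0586 over the libraries and -0.442 after group means were removed. For Cpt1a and Ppargc1b it was -0.958 over the libraries, but 0.402 after group means were removed. The non-member genes most like each member by the same r were Sik1 (0.999) and Ttyh2 (0.998) for Cpt1a, Mn1 (0.995) and Prkcb (0.993) for Acadm, Mn1 (0.991) and Prkcb (0.988) for Acadl, and Tmem173 (0.989) and Bag3 (0.985) for Hadha. For Hadhb they were Tmem206 (0.990) and Bex6 (0.988), for Ppargc1b Tmco4 (0.990), and for Slc25a20 Gnpda1 (0.959) and Fcho2 (0.956). Acadvl (Rtn1 at 0.908, Sf3b2 at 0.888) and Cpt2 (Acbd6 at 0.835, Gipc2 at 0.834) had the least close matches.

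The rest of the mitochondrial pathway was mixed after LPS. Of 23 tested genes among 24 other carriers and enzymes of mitochondrial oxidation, 10 fell, 7 rose and 6 were not called with siEhd1 (median -0.10), and the same counts were found with siControl (median -0.13). Of all tested genes, 34.0% were called lower after LPS with either siRNA, and 32.9% (siEhd1) and 34.8% (siControl) higher. For siEhd1 the shares were 14.0% higher and 14.2% lower at rest, and 4.44% higher and 4.10% lower after LPS. The counts of this list and those below are to be read beside these shares. Acads, the short-chain dehydrogenase, had 29.4 CPM in LPS-treated siEhd1 cells against 42.4 CPM in resting siEhd1 cells (-0.53, adjusted p = 1.5e-07), and 30.03 CPM in LPS-treated against 46.1 CPM in resting siControl cells (-0.62, adjusted p = 1.2e-08). Hadh, the short-chain hydroxyacyl-CoA dehydrogenase, fell by 0.49 with siEhd1 (adjusted p = 1.9e-07) and by 0.57 with siControl (adjusted p = 1.7e-08). Acaa2, a thiolase, fell by 0.75 with siEhd1 (adjusted p = 6.3e-10) and by 0.78 with siControl (adjusted p = 3.2e-10). Eci2, an enoyl-CoA isomerase needed for unsaturated chains, rose instead, by 0.37 with siEhd1 (adjusted p = 4.2e-05) and 0.53 with siControl (adjusted p = 5e-07). After LPS 1 of them was lower with siEhd1 and 0 were higher. That gene had 14, 20 and 16 counts in the siEhd1 libraries and 36, 26 and 34 in the siControl ones. By DESeq2 and limma-voom 0 were lower. The same held with the compared groups alone, with either replicate block, or without resting siControl replicate 2. It also held without LPS-treated siControl replicate 1 or 3, or any 1 LPS-treated siEhd1 replicate. In resting cells 2 rose and 2 fell with siEhd1, and 1 rose and 1 fell without resting siControl replicate 1 or 2 or resting siEhd1 replicate 1 or 2. DESeq2 called 1 of them higher and 0 lower at rest. By edgeR, a replicate block left 1 higher, and a block within each state left 1 lower. Eci2 had the smallest p (21.7 CPM in resting siEhd1 cells against 17.4 CPM in resting siControl cells, 0.32, SE 0.07, adjusted p = 0.0011).

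The list of acyl-CoA synthetases, whose long-chain members activate fatty acids before the shuttle, held both genes that rose and genes that fell. After LPS, 4 of 9 tested rose and 4 fell with either siRNA. Of all tested genes 34.0% fell with either siRNA, and 32.9% (siEhd1) and 34.8% (siControl) rose. Acsl1 had 1093 ± 50.8 CPM in LPS-treated siEhd1 cells, 1332 ± 15.7 CPM in LPS-treated siControl cells, 72.5 ± 3.05 CPM in resting siEhd1 cells and 63.8 ± 1.13 CPM in resting siControl cells (SD, n = 3 each). Acsl1 rose after LPS by 3.91 with siEhd1 (adjusted p = 2.2e-21) and by 4.38 with siControl (adjusted p = 4.3e-22). Acss1, a mitochondrial acetyl-CoA synthetase, and Acsf2 fell with siControl by 1.88 and 1.66 (adjusted p = 4.1e-11 and 4.2e-11). In resting cells siEhd1 went with higher Acsl3 (26.4 CPM in siEhd1 against 15.5 CPM in siControl cells, 0.77, adjusted p = 9.8e-06) and lower Acsf2 (10.9 CPM in siEhd1 against 16.9 CPM in siControl cells, -0.64, adjusted p = 7.2e-05), among 4 that rose and 3 that fell. The number that fell was 1 without resting siControl replicate 3 or resting siEhd1 replicate 1. After LPS, Acsl1 fell with siEhd1 (-0.28, SE 0.05, adjusted p = 0.0013). Acsl3 rose there (0.53, adjusted p = 0.014), a call lost without replicate 2 or 3 of LPS-treated siControl or replicate 1 or 2 of LPS-treated siEhd1 cells (adjusted p between 0.051 and 0.082).

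Of 15 tested peroxisomal oxidation genes, 5 fell and 3 rose after LPS with siEhd1, and 8 fell and 3 rose with siControl. The shares of all tested genes were 34.0% lower with either siRNA, and 32.9% (siEhd1) and 34.8% (siControl) higher. Abcd2, a peroxisomal transporter of very long acyl chains, had 7.78 CPM in LPS-treated siEhd1 cells, 8.38 CPM in LPS-treated siControl cells, 25.6 CPM in resting siEhd1 cells and 42.7 CPM in resting siControl cells. It fell with siEhd1 at rest (-0.74, SE 0.07, adjusted p = 1.2e-07), as did Acox3, an acyl-CoA oxidase (-0.25, SE 0.05, adjusted p = 0.00078), in a list with 3 lower and 1 higher. The higher count was 0 without resting siControl replicate 1 or 2 or resting siEhd1 replicate 2 or 3. It was also 0 without the filter on low counts and with either replicate block. After LPS, 0 of the 15 were called for siEhd1 by edgeR, and 0 had an unadjusted p under 0.05.

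Among 19 tested regulators of the pathway, 7 fell and 7 rose after LPS with siEhd1, and 9 fell and 5 rose with siControl. The shares of all tested genes were 34.0% lower with either siRNA, and 32.9% (siEhd1) and 34.8% (siControl) higher. Pparg, a nuclear receptor of lipid metabolism, had 5.37 ± 0.429 CPM in LPS-treated siEhd1 cells, 3.17 ± 0.963 CPM in LPS-treated siControl cells, 91.4 ± 4.39 CPM in resting siEhd1 cells and 81.6 ± 5.47 CPM in resting siControl cells (SD, n = 3 each). Its LPS difference was -4.09 with siEhd1 (adjusted p = 2.2e-16) and -4.68 with siControl (adjusted p = 9.9e-17). After LPS Pparg was higher with siEhd1 (0.76, SE 0.16, adjusted p = 0.0060). Esrra, which encodes the estrogen-related receptor alpha, rose by 0.67 with siEhd1 (adjusted p = 2.3e-08) and by 0.61 with siControl (adjusted p = 9.2e-08), and Pprc1, a PGC-1 family coactivator, rose by 0.59 and 0.79 in the same comparisons. Lpin1, a phosphatidate phosphatase and coactivator, fell by 2.43 with siEhd1 and 2.84 with siControl. Ppara, Ppargc1a, Esrrb, Esrrg and Prkaa2 did not pass the filter on low counts. In resting cells 6 regulators were lower and 1 higher with siEhd1, led by Rxra, the common partner of the PPAR receptors (72.9 CPM in siEhd1 against 91.3 CPM in siControl cells, -0.33, SE 0.05, adjusted p = 0.00012). Without resting siControl replicate 1 or resting siEhd1 replicate 2 the lower count was 3, and without resting siEhd1 replicate 1 it was 2. The higher count was 0 by DESeq2, with either replicate block and without replicate 1 or 2 of resting siControl or of resting siEhd1 cells, and 2 with the compared groups alone or without LPS-treated siControl replicate 1. After LPS, 3 regulators were higher and 0 lower with siEhd1, but 1 was higher without LPS-treated siControl replicate 3 or LPS-treated siEhd1 replicate 1 or 2.

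Known PPAR-responsive genes were mostly lower after LPS, with 4 lower and 1 higher of 6 tested with siEhd1 (median -1.07), and 5 lower and 0 higher with siControl (median -1.23). For this list and the lipolysis and ketone lists below, 34.0% of all tested genes were lower with either siRNA. Higher were 32.9% with siEhd1 and 34.8% with siControl. Plin2, a lipid droplet coat protein, had 509.9 CPM in LPS-treated siEhd1 cells, 483 CPM in LPS-treated siControl cells, 1029 CPM in resting siEhd1 cells and 1264 CPM in resting siControl cells. Angptl4, a secreted lipase inhibitor, had 3, 2 and 0 counts in LPS-treated siEhd1 cells and 2, 1 and 1 counts in LPS-treated siControl cells, against 207 to 281 counts in resting siEhd1 cells and 298 to 383 counts in resting siControl cells. In resting cells 3 of the 6 fell with siEhd1: Fabp4, a fatty acid carrier (-0.79, SE 0.10, adjusted p = 1e-05), Plin2 (-0.30, SE 0.06, adjusted p = 0.00067) and Angptl4 (-0.44, adjusted p = 0.013). The Angptl4 call was lost without resting siControl replicate 1 (adjusted p = 0.092) or resting siEhd1 replicate 1 (adjusted p = 0.099). After LPS 0 of the 6 were called by edgeR, DESeq2 or limma-voom, with 1 higher by edgeR at an unadjusted p under 0.05, but Fabp4 was called without LPS-treated siControl replicate 2 (0.40, adjusted p = 0.028). Of 10 tested lipolysis and lipid supply genes, 6 fell and 4 rose after LPS with siEhd1, and 6 fell and 3 rose with siControl, among them lysosomal acid lipase, Lipa, at -2.32 with siEhd1 and -2.22 with siControl. Of 8 ketone body and odd-chain genes, 5 fell and 0 rose with either siRNA, Oxct1 by 1.16 with siEhd1 and by 1.00 with siControl. For siEhd1 at rest, edgeR called 2 lipolysis genes lower and 0 higher (1 lower without any 1 of the 6 resting libraries). The lower count was also 1 without the filter on low counts and with either replicate block. Lpl, lipoprotein lipase, named here after its values were seen, had 4643, 4455 and 4391 CPM in resting siEhd1 cells against 2560, 3212 and 3242 CPM in resting siControl cells (0.58, SE 0.23, adjusted p = 0.094). It was called higher by DESeq2 (adjusted p = 0.039), with the compared groups alone (adjusted p = 0.00029) and without LPS-treated siControl replicate 1 (adjusted p = 0.00026). By edgeR at rest, 2 ketone and odd-chain genes rose and 0 fell (0 rose without resting siControl replicate 1 or 2, and 1 fell without resting siEhd1 replicate 1 or LPS-treated siControl replicate 1 or 3). With either replicate block, or without resting siEhd1 replicate 1 or 2, 1 rose. After LPS, 0 genes of these 2 lists were called for siEhd1 by edgeR, with 1 higher and 1 lower lipolysis gene at an unadjusted p under 0.05. DESeq2 called 1 lipolysis gene, Lpl, higher there, as did edgeR without LPS-treated siControl replicate 1 or 3, and 1 was lower without LPS-treated siControl replicate 3 or LPS-treated siEhd1 replicate 2.

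**Figure D5:**
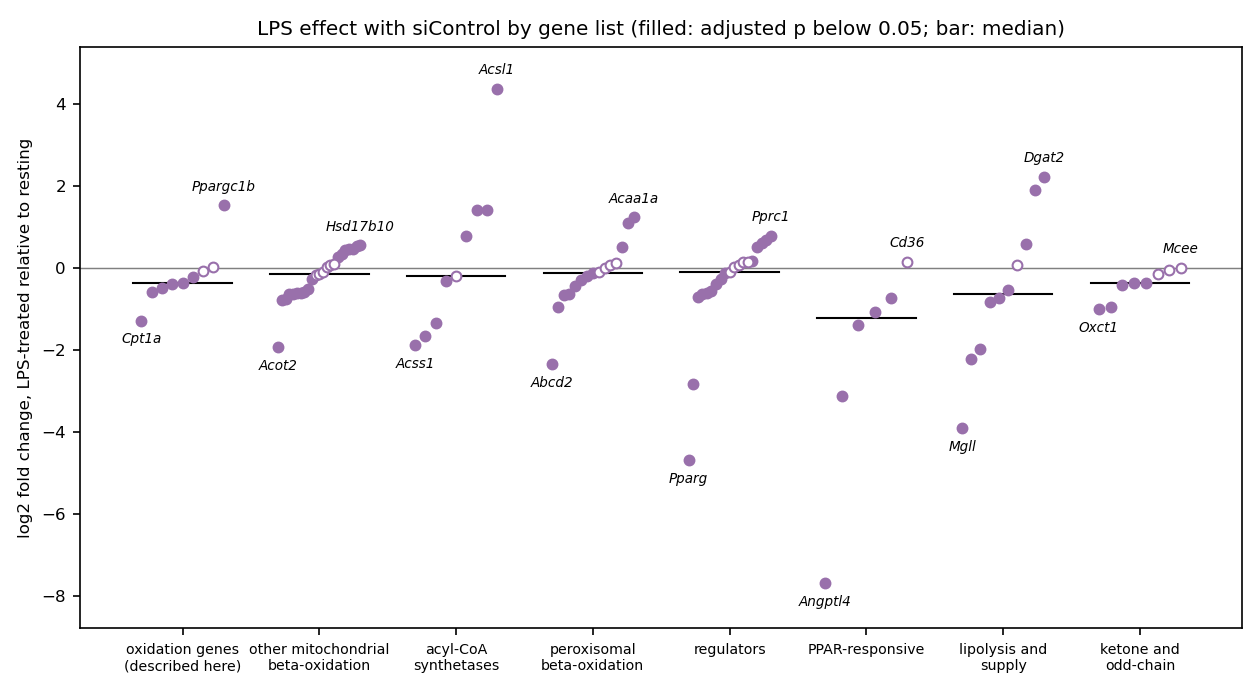
Log2 fold changes of LPS-treated relative to resting cells with siControl (vertical axis) for the tested genes of each pathway list; points are genes, filled at an edgeR adjusted p under 0.05, and bars are medians. The PPAR-responsive list has the lowest median (-1.23), and its lowest point, Angptl4, rests on 2, 1 and 1 counts after LPS.

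Cpt1a alone of the 9 carries the 7 bases GCCTTGT in the annotated 3′ UTR searched, a sequence taken from an earlier examination of these data in which it was frequent in genes lower with siEhd1. The match starts at base 953 of the 1892-base UTR on the plus strand of GRCm38, and is shown in capitals with 10 bases on either side.
Cpt1a UTR site, chr19:3384784-3384810: ggcagccaaaGCCTTGTcatggcagcc
The sequence was present in 48.6% of the genes lower with siEhd1 after LPS, 9.96% of those higher and 12.2% of those not called, and in 27.3% of the genes lower at rest, 8.34% of those higher and 12% of those not called. Over all tested genes with a searched 3′ UTR the share was 13.7%. Because the sequence was chosen from these data for its frequency in lower genes, its excess there is not an independent result. The Cpt1a UTR was also the longest of the 9, with 113 to 1511 bases in the other members. Cpt1a was lower with siEhd1 at rest, and after LPS its difference was -0.04. The part of this sequence in the Cpt1a difference was not tested. Slc25a20, the other member that was lower at rest, does not carry it.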

How the data were processed

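PolyA RNA of 12 bone marrow-derived macrophage libraries was analysed in 4 groups of 3, taken from the labels. The authors deposited raw counts per gene in 2 tables, 1 per state, and 0 columns were left unused. The submitters' processing notes name the build mm10 and, as tools, STAR 2.7.6a, featureCounts 2.20.0, Trim Galore 0.6.3 with cutadapt, FastQC 0.10.1, R 4.4.2 and DESeq2 1.46.0. How reads on either strand or on several genes were counted, and with which annotation, is not stated in the sources used here.

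The deposited counts entered edgeR 4.0.16 (R 4.3.3) with filterByExpr by group (minimum count 10, total 15), TMM, robust quasi-likelihood F tests, 1 mean per group over all 12 libraries, 8 residual degrees of freedom and Benjamini-Hochberg adjustment over 12164 genes. Each SE was computed as |log2 fold change| / √F. Filtered genes held at most 0.039% of a library's counts. The script was tested on simulated data. Libraries of a group differed beyond sampling noise (chi-square over its degrees of freedom 3.00 to 23.6). CPM used TMM factors. Exon lengths came from GENCODE M21, which held 23376 of the 24421 symbols.

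All members are named in every comparison, with Ehd1, up to 4 called genes per list with the smallest p, regulators of at least 5 CPM, and the 2 genes most like each member; results for some genes are not reported here. The members, the lists and the 7-base UTR sequence were chosen with earlier results of these data known. Alternatives were DESeq2 size factors, no filter, DESeq2 1.42.0, limma-voom (limma 3.58.1), the compared groups alone, replicate blocks, each library left out, and a pseudocount for ratios. Acot1 and Acot2, and Acaa1a and Acaa1b, are near-identical pairs whose counts are uncertain.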

Additional observations from a re-analysis of the deposited data

Results flagged for a closer look

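Of the members, the ratio of Hadha to Hadhb counts had siEhd1 effects of opposite direction in the 2 states, 0.08 after LPS and -0.22 at rest on the log2 scale. All siEhd1 libraries lay above the siControl ones after LPS and below them at rest. The difference of 0.30 was not tested.

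Among the pathway lists, edgeR's test of the difference (LPS-treated minus resting) passed for the siEhd1 effects on the 7 genes given here. Of all tested genes 3.12% were called higher and 2.93% lower in this difference. Fabp4 had a difference of 1.09 (adjusted p = 0.00014), Abcd2 of 0.63 (adjusted p = 0.0026), Rxra of 0.45 (adjusted p = 0.00092) and Plin2 of 0.38 (adjusted p = 0.0083). For each of these 4 the RNA was lower with siEhd1 at rest and was not called after LPS. Acsl1 had a difference of -0.47 (adjusted p = 0.00072), with a siEhd1 change of -0.28 after LPS and 0.19 at rest. The resting Acsl1 call was lost without resting siControl replicate 3 (adjusted p = 0.057) or resting siEhd1 replicate 2 (adjusted p = 0.090). It was also lost by edgeR with a block within each state (adjusted p = 0.052). These 5 differences passed the test under all 18 alternatives run on them.

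For the other 2 genes the calls of the difference were marginal and were also lost in fits that kept every library. By edgeR, Acsl5 had an adjusted p of 0.062 with a replicate block and 0.095 with a block within each state. Lpin1 had an adjusted p of 0.055 by limma-voom and 0.05 by edgeR with a block within each state. Acsl5 had a difference of -0.29 (adjusted p = 0.039), lost without any 1 of 8 libraries (adjusted p between 0.050 and 0.11): resting siControl replicate 1 or 2, resting siEhd1 replicate 1 or 2, LPS-treated siControl replicate 1, or any LPS-treated siEhd1 replicate. Lpin1 had 0.41 (adjusted p = 0.029), lost without resting siControl replicate 1 or 3, resting siEhd1 replicate 1 or 2, LPS-treated siControl replicate 1 or 3, or LPS-treated siEhd1 replicate 2 or 3 (adjusted p between 0.051 and 0.092).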

How the results depend on the processing

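Over 828 values of the members under the alternatives, 1 lost its call and 5 gained one; 31 changed sign, of which 0 were called in either setting. Members called lower in the difference of siEhd1 effects numbered 1 without the filter on low counts, against 0. With each library left out in turn, members called in that difference ranged from 0 to 1 higher and from 0 to 1 lower, and members lower with siEhd1 at rest from 1 to 2. The members' median ranged from -0.39 to -0.32 for LPS with siControl and from -0.049 to 0.016 for siEhd1 after LPS. Over all genes, calls ranged from 243 to 429 higher and from 209 to 418 lower in the difference, from 304 to 594 higher and from 303 to 506 lower for siEhd1 after LPS, and from 1148 to 1857 lower for siEhd1 at rest. The Ehd1 difference was called without LPS-treated siControl replicate 3 (-0.35, adjusted p = 0.023). Same-numbered libraries of the groups compared had correlations of -0.167 to 0.251, so the numbers were not taken as pairs; a replicate block within each state lowered the difference count to 232 lower genes, against 356, and changed no call of a member. Of 8277 values of list genes, 188 lost and 35 gained a call, and of 195 that changed sign 0 were called in either setting. Ppargc1b has the fewest counts, which limits the precision of its siEhd1 difference. Intervals cover the spread between libraries of unknown origin.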
